A study of Homo sapiens with 6 samples.

Results

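*MFAP5* and 9 further genes of elastic fibers and microfibrils were taken from a table of 58735 genes by their symbols: *MFAP2*, *MFAP4*, *FBN1*, *FBN2*, *ELN*, *LOX*, *LOXL1*, *EMILIN1* and *FBLN5*. *MFAP5* was selected on its change in the comparison described here, which ranked first of the 13621 genes tested by log2 fold change on log2(FPKM + 0.1), and the others were added for their part in the same fibers. The values of the 10 genes in this comparison are therefore a description, and no test of them is used as support. Where 1 of them is said to be past a threshold, that only describes its place in the fit over all genes. All 10 genes were above 0 in at least 1 library, and 6 of them passed the filter on low values.

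mRNA was measured in 3 libraries of TPC-1, a human papillary thyroid carcinoma cell line given in the labels as the wild strain, and in 3 libraries of *RRM2*-OE-TPC-1. The latter are TPC-1 cells infected with an LV18 lentivirus in which a CMV promoter drives *RRM2*, and selected with puromycin. *RRM2* encodes the small subunit of ribonucleotide reductase, and the comparison asks which genes change when it is overexpressed. For the control cells no virus or selection is named, and no empty-vector library was analysed here, so the effects of virus, puromycin and *RRM2* cannot be told apart. In the labels the genotype of *RRM2*-OE-TPC-1 replicates 2 and 3 reads RRM3 and RRM4, whereas their titles give *RRM2*. The methods describe poly(A) selection, and the labels describe removal of ribosomal RNA with RNase R digestion.

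Elastic fibers consist of a core of cross-linked elastin within a mantle of microfibrils. Microfibrils are polymers of fibrillin, to which small glycoproteins such as MFAP2 and MFAP5 bind, and they also hold latent TGF-β in the matrix. Fibulins and EMILINs join elastin to this scaffold, and lysyl oxidases cross-link it. Fibroblasts and smooth muscle cells are the usual producers of these proteins, whereas thyroid follicular epithelium is not known for them.

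Between 14317091 and 17084067 reads per library lay on genes, and mitochondrial genes took 4.29% to 5.89% of them. *RRM2* averaged 8.92 FPKM (SD 0.346, n = 3) in control and 48.4 FPKM (SD 1.78, n = 3) in infected cells, and its log2 fold change was 2.43, although gene-level values do not separate the transgene from the endogenous gene. FPKM is a fragment count divided by gene length and by sequencing depth, so levels of different genes can be set side by side. Of the thyroid markers checked, *PAX8* and *FOXE1* passed the filter, *NKX2-1* had no read in any library, and *TG*, *TSHR* and *SLC5A5* had means of at most 0.0841 FPKM in either group. Of 13621 genes tested, 11.5% were called differentially expressed, that is, at a limma adjusted p (Benjamini-Hochberg) of 0.05 or less and with a log2 fold change of at least 1 in either direction. Genes called higher in *RRM2*-OE-TPC-1 were 4.48% of those tested, and genes called lower were 6.97%. Log2 fold changes are *RRM2*-OE-TPC-1 minus TPC-1 on the log2(FPKM + 0.1) scale, which understates the change of low genes.

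*MFAP5* (ENSG00000197614, GRCh38, chromosome 12 from 8637346 to 8662888, minus strand) encodes a microfibril-associated glycoprotein that binds fibrillins and, through an RGD motif, integrins. In TPC-1 its level was 0.232, 0.107 and 0.162 FPKM in replicates 1 to 3. In *RRM2*-OE-TPC-1 it was 6.80, 7.36 and 7.51 FPKM. The *RRM2*-OE-TPC-1 libraries lay close together, whereas those of TPC-1 were spread widely for their low level. The lowest *RRM2*-OE-TPC-1 library was far above the highest TPC-1 library. Mean levels (SD, n = 3) were 0.167 ± 0.0624 FPKM for TPC-1 and 7.23 ± 0.376 FPKM for *RRM2*-OE-TPC-1, which differ by a linear ratio of 43.3. The log2 fold change was 4.80 with a standard error of 0.173. *MFAP5* passed the filter only through the *RRM2*-OE-TPC-1 libraries, where it was high.

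The TPC-1 level of *MFAP5* rested on few reads, which were recovered from the FPKM values as whole counts. The TPC-1 libraries held 15, 7 and 10 reads of *MFAP5*, and the *RRM2*-OE-TPC-1 libraries held 381, 489 and 464. Each TPC-1 library was thus above 3 reads, the limit that a count of 0 would allow, which for *MFAP5* corresponds to 0.0470 FPKM on average. From the summed counts, 32 against 1334, the ratio of read rates was 43.4, with an exact 95% interval of 30.6 to 63.7 that covers counting error only. Among the tested genes the mean level of *MFAP5* moved from percentile 0.228 in TPC-1 to percentile 58.2 in the *RRM2*-OE-TPC-1 libraries. Only genes past the filter were ranked, and *MFAP5* passed it only through *RRM2*-OE-TPC-1. A very low percentile in TPC-1 was thus fixed in advance, and nothing is read from the move. In a bulk library, a few cells with much *MFAP5* mRNA and many cells with little cannot be told apart. Exons of *MFAP5* share 65 of 3876 bases with *HADHAP2* on the opposite strand, and that pseudogene had mean levels of 0.0262 FPKM in TPC-1 and 0.0530 FPKM in *RRM2*-OE-TPC-1.

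**Figure D1:**
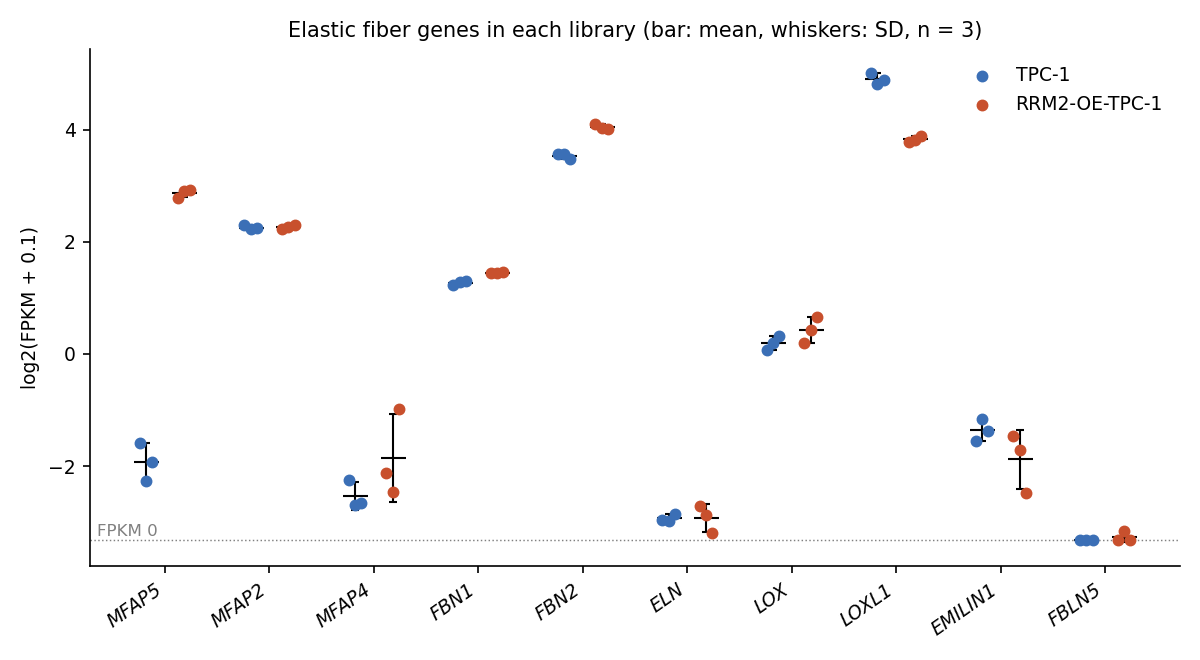
Level of each of the 10 genes in each library as log2(FPKM + 0.1), with TPC-1 in blue and RRM2-OE-TPC-1 in orange. Horizontal bars are means and whiskers are SD of the log2 values (n = 3), and the dotted line marks an FPKM of 0. MFAP5 moved from a mean of 0.167 to 7.23 FPKM, LOXL1 from 29.9 to 14.1 FPKM, and MFAP2 stayed at 4.68 and 4.71 FPKM.

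*MFAP2* (ENSG00000117122, chromosome 1 from 16974502 to 16980835, minus strand) encodes the other microfibril-associated glycoprotein of the same family, which binds fibrillin and TGF-β. Its level was 4.81, 4.59 and 4.63 FPKM in TPC-1 and 4.60, 4.73 and 4.80 FPKM in *RRM2*-OE-TPC-1. The groups overlapped, with 215 to 234 reads per TPC-1 library and 194 to 236 per *RRM2*-OE-TPC-1 library. The log2 fold change of *MFAP2* was 0.011 with a standard error of 0.0555, and its sign was negative in 4 of 12 alternative analyses, as with scaling to library totals (-0.046). The FPKM ratio of *MFAP5* to *MFAP2* was 0.0482, 0.0234 and 0.0350 in the TPC-1 libraries. The same ratio was 1.48, 1.56 and 1.56 in the *RRM2*-OE-TPC-1 libraries. By FPKM, which depends on the gene lengths used, *MFAP5* was the scarcer of this pair in every TPC-1 library and the more abundant in every *RRM2*-OE-TPC-1 library.

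*MFAP4* (ENSG00000166482, chromosome 17 from 19383442 to 19387240, minus strand) is not related to *MFAP2* and *MFAP5* in sequence despite its name, and encodes a fibrinogen-domain protein found on microfibrils and elastin. It did not pass the filter. The TPC-1 libraries held 4, 2 and 2 reads of *MFAP4*, and the *RRM2*-OE-TPC-1 libraries held 4, 3 and 14. The groups overlapped, and 1 library, *RRM2*-OE-TPC-1 replicate 3 at 0.408 FPKM, stood above the other 5, which lay between 0.0553 and 0.129 FPKM. The unfiltered log2 fold change of *MFAP4* was 0.67 (SE 0.446), and it was 0.23 without that library. Exons of *MFAP4* share 103 of 2152 bases with *MAPK7* on the opposite strand, and *MAPK7* had means of 3.75 FPKM in TPC-1 and 4.95 FPKM in *RRM2*-OE-TPC-1. The labels describe a directional library kit, but whether counting used strand is not given in the sources used here, so these reads cannot be assigned to either gene with certainty.

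Fibrillins form the backbone of the microfibril. *FBN2* (ENSG00000138829, chromosome 5 from 128257909 to 128659185, minus strand), the fibrillin known mainly from development, was at 11.7, 11.8 and 11.0 FPKM in TPC-1. In *RRM2*-OE-TPC-1 it was at 17.1, 16.3 and 16.1 FPKM. The groups did not overlap, and the mean was 11.5 ± 0.425 FPKM against 16.5 ± 0.552 FPKM, a linear ratio of 1.43. With 2321 to 3681 reads per library, *FBN2* was the most deeply counted of the 10 genes. Its log2 fold change of 0.52 (SE 0.0452) did not reach 1, so *FBN2* was not called.

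*FBN1* (ENSG00000166147, chromosome 15 from 48408306 to 48645849, minus strand), the main fibrillin of adult tissue and the gene altered in Marfan syndrome, was at 2.24, 2.35 and 2.36 FPKM in TPC-1. In *RRM2*-OE-TPC-1 it was at 2.62, 2.62 and 2.67 FPKM. The groups did not overlap, although the difference was small: the log2 fold change was 0.18 (SE 0.0733), and it was 0.12 with scaling to library totals. *FBN2* was the more abundant fibrillin in every library. The FPKM ratio of *FBN2* to *FBN1* was 5.24, 5.03 and 4.68 in TPC-1 and 6.55, 6.22 and 6.04 in *RRM2*-OE-TPC-1. The lowest *RRM2*-OE-TPC-1 ratio thus lay above the highest TPC-1 ratio.

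Promoter sequence is shown for *MFAP2*, *FBN1* and *FBN2*, the genes of the microfibril scaffold beside which the level of *MFAP5* was read. RefSeq promoter entries (GRCh38.p14) were matched for 6 of the 10 genes, and *MFAP5*, *MFAP4*, *ELN* and *EMILIN1* had none. Of their 10 entries, the 3 that lay outside any GENCODE 29 exon are shown. The *FBN1* and *FBN2* windows lie inside the spans given above for these genes, and the *MFAP2* window lies beyond its span. The RefSeq starts thus differ from the outer ends of the gene models behind the FPKM values. Each run below is the 250 bases before a RefSeq start, written 5′ to 3′ on the minus strand, on which all 3 genes lie. Capitals mark matches to 4 short motifs searched on both strands: TATAAA (the TATA box), GGGCGG (a GC box), TGANTCA (the AP-1 motif) and GGAATG (the TEAD motif).
MFAP2, chr1:16981584-16981833: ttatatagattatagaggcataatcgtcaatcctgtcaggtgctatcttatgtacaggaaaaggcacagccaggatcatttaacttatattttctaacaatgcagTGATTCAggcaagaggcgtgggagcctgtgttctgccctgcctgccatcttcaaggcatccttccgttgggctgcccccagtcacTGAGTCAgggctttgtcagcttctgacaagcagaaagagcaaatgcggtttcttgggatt
FBN2, chr5:128538246-128538495: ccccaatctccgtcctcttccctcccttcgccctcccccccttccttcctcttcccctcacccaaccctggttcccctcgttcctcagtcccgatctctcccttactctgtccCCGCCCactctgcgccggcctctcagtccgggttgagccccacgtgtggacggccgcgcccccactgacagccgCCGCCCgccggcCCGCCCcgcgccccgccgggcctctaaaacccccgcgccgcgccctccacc
FBN1, chr15:48644971-48645220: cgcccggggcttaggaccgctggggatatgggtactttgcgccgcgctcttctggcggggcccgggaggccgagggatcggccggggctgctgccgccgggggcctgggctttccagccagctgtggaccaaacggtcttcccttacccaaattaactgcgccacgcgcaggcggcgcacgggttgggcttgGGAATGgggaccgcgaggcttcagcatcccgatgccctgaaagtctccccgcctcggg

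The *MFAP2* window held TGANTCA at 2 places, beginning 145 and 60 bases before the start, and 6.57% of 35116 RefSeq windows of the same length held this motif. The other *MFAP2* entry, chr1:16980621-16980870, overlaps an exon and is not shown. It held 0 matches to TGANTCA and 2 to GGGCGG. The *FBN2* window held GGGCGG 3 times, read on the opposite strand as CCGCCC, and 42.6% of windows held it. The *FBN1* window held a GGAATG beginning 58 bases before the start, and 11.9% of windows held it. None of the 3 windows held TATAAA, which was in 10.7% of windows. These matches describe the letters of the windows alone. The level of *MFAP2* overlapped between the groups, and those of *FBN1* and *FBN2* did not.

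*ELN* (ENSG00000049540, chromosome 7 from 74027789 to 74069907, plus strand) encodes tropoelastin, the soluble precursor of the fiber core. It did not pass the filter in this cell line. The TPC-1 libraries held 3, 3 and 4 reads of *ELN*, and the *RRM2*-OE-TPC-1 libraries held 5, 4 and 1. Both groups summed to 10 reads, and the ratio of read rates was 1.04 with an exact 95% interval of 0.389 to 2.79, so a difference within that interval was not detectable at this depth. The highest level of *ELN* in any library was 0.0529 FPKM, whereas *FBN2* was at 11.0 FPKM or more in every library. The counts of *ELN* include 165 of 6542 exonic bases shared with *ELN-AS1* on the opposite strand.

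Lysyl oxidases are copper-dependent enzymes that oxidise lysines of elastin and collagen for cross-linking. *LOXL1* (ENSG00000129038, chromosome 15 from 73925989 to 73952137, plus strand), the member of the family most closely tied to elastin, was at 32.3, 28.0 and 29.4 FPKM in TPC-1. In *RRM2*-OE-TPC-1 it was at 13.6, 14.0 and 14.8 FPKM. The groups did not overlap, and the mean of TPC-1, 29.9 ± 2.22 FPKM, was 2.12 times the mean of *RRM2*-OE-TPC-1, 14.1 ± 0.588 FPKM. The log2 fold change was -1.08 (SE 0.0587), close to the threshold of 1, and it ranged from -1.12 to -1.02 when each library was left out in turn. *LOXL1* was counted with 1704 to 1961 reads per TPC-1 library and 715 to 871 per *RRM2*-OE-TPC-1 library. Its exons share 335 of 3637 bases with *LOXL1-AS1* on the opposite strand, and that gene had means of 4.00 FPKM in TPC-1 and 3.01 FPKM in *RRM2*-OE-TPC-1.

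*LOX* (ENSG00000113083, chromosome 5 from 122063195 to 122078360, minus strand), which encodes the founding enzyme of the family, was at 0.951, 1.05 and 1.14 FPKM in TPC-1. In *RRM2*-OE-TPC-1 it was at 1.05, 1.25 and 1.47 FPKM. The groups overlapped, and the spread was widest in *RRM2*-OE-TPC-1, where the SD was 0.212 FPKM against 0.0960 FPKM. The log2 fold change of *LOX* was 0.23 (SE 0.148), and it was 0.12 without *RRM2*-OE-TPC-1 replicate 3. The exons of *LOX* share 138 of 5547 bases with *SRFBP1* on the opposite strand, which had means of 4.51 FPKM in TPC-1 and 6.19 FPKM in *RRM2*-OE-TPC-1. The FPKM ratio of *LOXL1* to *LOX* was 34.0, 26.6 and 25.7 in the TPC-1 libraries and 13.0, 11.2 and 10.03 in the *RRM2*-OE-TPC-1 libraries, so *LOXL1* was the more abundant enzyme mRNA in both groups.

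*EMILIN1* (ENSG00000138080, chromosome 2 from 27078567 to 27086408, plus strand) encodes a glycoprotein at the interface of elastin and microfibrils. It did not pass the filter, with 16, 23 and 18 reads in the TPC-1 libraries and 15, 14 and 5 in the *RRM2*-OE-TPC-1 libraries. The levels were 0.242 to 0.346 FPKM in TPC-1 and 0.0793 to 0.262 FPKM in *RRM2*-OE-TPC-1, and the groups overlapped. The ratio of read rates was 0.621, with an exact 95% interval of 0.394 to 0.966 for counting error. The unfiltered log2 fold change of *EMILIN1* was -0.52 (SE 0.364), and it was -0.22 without *RRM2*-OE-TPC-1 replicate 3, its lowest library.

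*FBLN5* (ENSG00000140092, chromosome 14 from 91869412 to 91947987, minus strand) encodes a fibulin that binds tropoelastin and LOXL1 and is needed for elastic fiber assembly in mice. A single read of *FBLN5* was found in the 6 libraries, in *RRM2*-OE-TPC-1 replicate 2. A count of 0 allows up to 3 reads, which for *FBLN5* corresponds to 0.0366 FPKM on average, and no fold change is given.

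**Figure D2:**
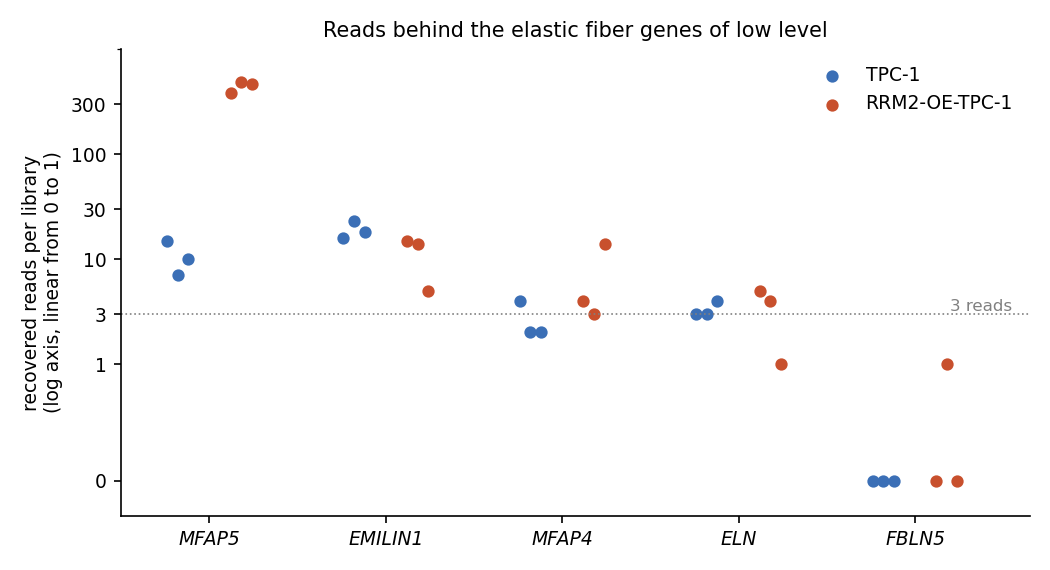
Recovered reads per library for MFAP5 and the 4 genes under the filter, on a log axis that is linear from 0 to 1, with TPC-1 in blue and RRM2-OE-TPC-1 in orange and 1 point per library. The dotted line marks 3 reads, and MFAP5 moved from 7 to 15 reads to 381 to 489 reads while ELN stayed at 1 to 5 reads in all 6 libraries.

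Of the 6 genes that passed the filter, *MFAP5* was past both thresholds as higher in *RRM2*-OE-TPC-1 and *LOXL1* as lower. The other 4 were not past both, although *FBN2* was past the adjusted p alone. The share of called genes among all tested was 11.5%, and because *MFAP5* was selected on this comparison nothing is read from the count. The groups did not overlap for 4 of the 6, *MFAP5*, *FBN1*, *FBN2* and *LOXL1*, where 72.2% of all tested genes had groups that did not overlap. The median log2 fold change of the 6 genes was 0.21, beside 0.011 over all tested genes.

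The order of the levels differed between the groups. In TPC-1 the order by mean FPKM was *LOXL1*, *FBN2*, *MFAP2*, *FBN1*, *LOX*, *EMILIN1*, *MFAP5*, *MFAP4*, *ELN* and *FBLN5*, and the only neighbours whose libraries overlapped were *MFAP5* and *MFAP4*. In *RRM2*-OE-TPC-1 it was *FBN2*, *LOXL1*, *MFAP5*, *MFAP2*, *FBN1*, *LOX*, *MFAP4*, *EMILIN1*, *ELN* and *FBLN5*. There *MFAP4* overlapped with *EMILIN1*, and *ELN* with *FBLN5*. *MFAP5* thus went from rank 7 to rank 3 of the 10, and *FBN2* and *LOXL1* exchanged the first places.

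The summed level of the 10 genes differed less than the levels of *MFAP5*, *LOXL1* and *FBN2*. The sum was 52.7, 48.3 and 49.1 FPKM in TPC-1 and 46.3, 46.6 and 47.8 FPKM in *RRM2*-OE-TPC-1, and the groups did not overlap. *LOXL1* took 59.7% ± 1.74 of the sum in TPC-1 (SD, n = 3) and 30.1% ± 0.727 in the *RRM2*-OE-TPC-1 libraries (SD, n = 3). *FBN2* took 23.1% ± 1.20 in TPC-1 and 35.2% ± 1.70 in the *RRM2*-OE-TPC-1 libraries. The share of *MFAP5* was 0.331% ± 0.109 in TPC-1, against 15.4% ± 0.617 in *RRM2*-OE-TPC-1. The sum of the shares is fixed, so a larger share of *MFAP5* and *FBN2* and a smaller share of *LOXL1* are not separate results.

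**Figure D3:**
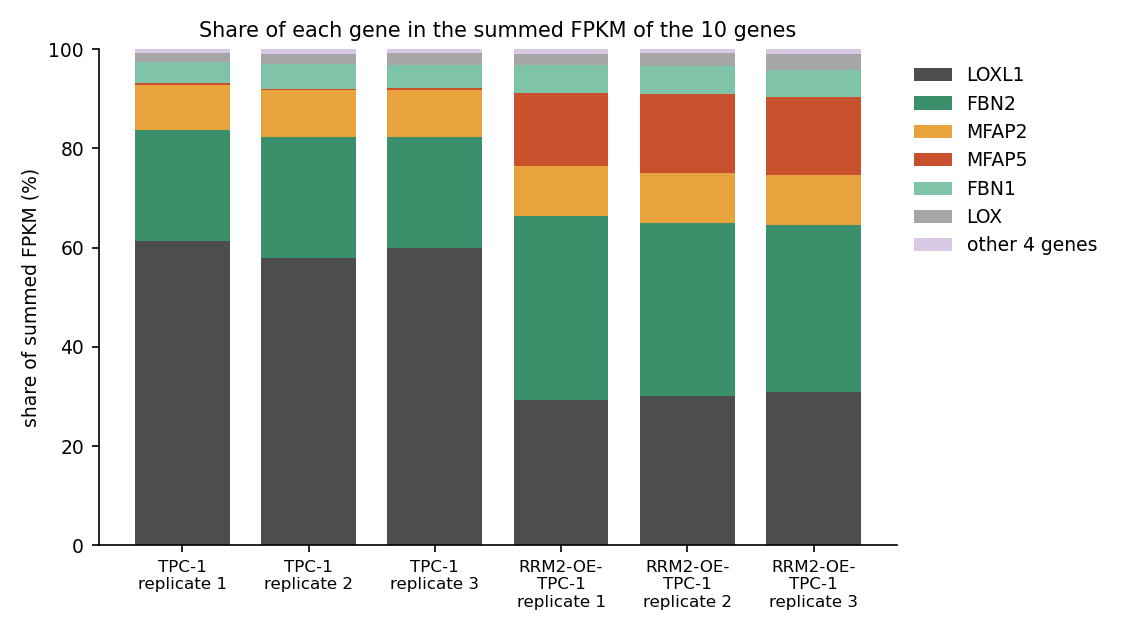
Share of each gene in the summed FPKM of the 10 genes, in percent, with 1 stacked bar per library. MFAP5, in orange, took 0.222% to 0.440% of the sum in TPC-1 but 14.7% to 15.8% in RRM2-OE-TPC-1, and LOXL1, in dark grey, took 57.9% to 61.4% and 29.4% to 30.8%.

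A list of 56 other genes of the elastic fiber pathway was compared in the same way, 39 of which passed the filter. Of these, 2 rose and 3 fell past both thresholds, where 4.48% of all tested genes were called higher and 6.97% lower. By the adjusted p alone, 8 were higher (34.9% of all tested genes) and 20 lower (32.7% of all tested genes), and the median log2 fold change was -0.26 beside 0.011. With scaling to library totals, or with voom on recovered reads, 6 genes of the list fell rather than 3. The adjusted p-values for named genes of this list are from limma with Benjamini-Hochberg adjustment over all 13621 tested genes. They set the difference between the groups against the spread between libraries of a group, which are biological replicates by the methods. Separate infections are not described for these libraries, so the p-values do not cover variation between infections.

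Among fibulins, EMILINs and multimerins, where 4 of 9 genes were tested, *EFEMP1* was called. The other 3 were not called, and their log2 fold changes were below 0: -0.91 for *EFEMP2*, -0.81 for *FBLN1* and -0.23 for *EMILIN2*. *EFEMP1* (ENSG00000115380) encodes a fibulin of the same short class as the product of *FBLN5*. It rose from 1.24, 1.47 and 1.24 FPKM to 7.96, 7.62 and 7.29 FPKM, a log2 fold change of 2.45 (SE 0.0873, limma adjusted p = 2.33e-07). In the *RRM2*-OE-TPC-1 libraries its mean of 7.62 FPKM was close to the 7.23 FPKM of *MFAP5*, whereas in TPC-1 its mean of 1.32 FPKM was above the 0.167 FPKM of *MFAP5*.

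ADAMTS and ADAMTS-like proteins bind fibrillin and influence microfibril assembly, and 6 of 8 were tested. *ADAMTS6* (ENSG00000049192) rose from 0.813 ± 0.0511 to 2.33 ± 0.0737 FPKM (log2 fold change 1.41, limma adjusted p = 7.66e-06). *ADAMTS10* (ENSG00000142303), its closest relative in the family, fell from 5.12 ± 0.420 to 1.39 ± 0.0503 FPKM (log2 fold change -1.80, limma adjusted p = 9.38e-07). The 2 paralogs thus moved in opposite directions in the same libraries.

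Of 7 matrix partners, 5 were tested, and *BGN* (ENSG00000182492), which encodes the small proteoglycan biglycan, fell from 7.16 ± 0.487 to 2.70 ± 0.146 FPKM (log2 fold change -1.37, limma adjusted p = 1.69e-06). The other 4 were not called, although *FKBP10* (log2 fold change -0.98) and *HSPG2* (-0.94) fell just short of the threshold. The log2 fold changes of *VCAN* and *FN1* were -0.44 and 0.12. Of 9 elastases, 4 were tested, and *MMP2* (ENSG00000087245), a gelatinase that also cleaves elastin and microfibril proteins, fell from 86.6 ± 1.15 to 14.8 ± 0.191 FPKM (log2 fold change -2.54, limma adjusted p = 2.91e-09). *MMP2* shares 174 exonic bases with *AC007336.3* on the same strand, so some of its reads are uncertain. By Western blot the study reported more MMP2 protein in *RRM2*-OE-TPC-1 than in control cells, whereas the values here are of mRNA.

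In the other role groups no gene was called, and the gene of highest mean FPKM over the 6 libraries is given for each. *LTBP3*, among 4 tested fibrillins and latent TGF-β binding proteins, was at 32.4 FPKM in TPC-1 and 16.4 FPKM in *RRM2*-OE-TPC-1, a log2 fold change of -0.98 just short of the threshold. *LOXL2*, among 6 tested genes of the lysyl oxidase family and its processing, was at 91.9 and 91.0 FPKM (log2 fold change -0.014, limma adjusted p = 0.802). *LOXL2* was thus above *LOXL1* and *LOX* in both groups. *TGFB1*, among 3 TGF-β ligands, was at 34.6 and 23.6 FPKM (log2 fold change -0.55), and its exons share 215 of 3238 bases with *HNRNPUL1* on the opposite strand. *ITGB5*, among 7 elastin receptor genes, was at 68.2 and 51.5 FPKM (log2 fold change -0.41).

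**Figure D4:**
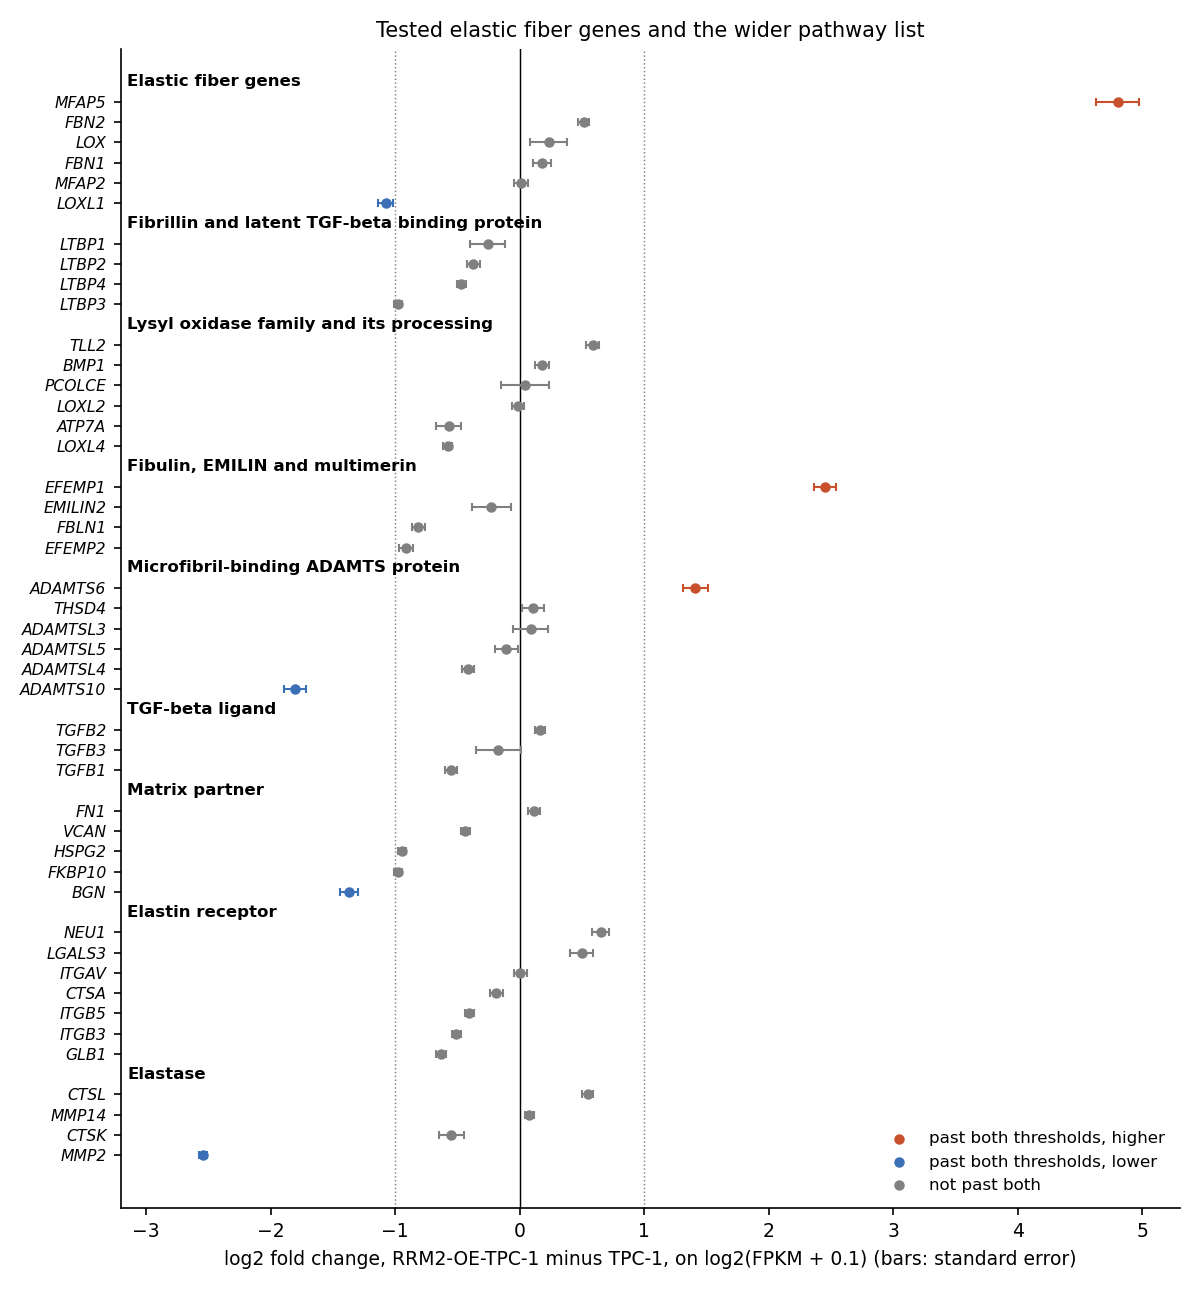
Log2 fold change, RRM2-OE-TPC-1 minus TPC-1 on log2(FPKM + 0.1), of the 6 tested elastic fiber genes and the 39 tested genes of the wider list, grouped by role. Points are estimates, bars are standard errors and dotted lines mark log2 fold changes of -1 and 1. Orange and blue points are past both thresholds, and they are MFAP5 at 4.80, EFEMP1 at 2.45 and ADAMTS6 at 1.41 above 0 and LOXL1 at -1.08, BGN at -1.37, ADAMTS10 at -1.80 and MMP2 at -2.54 below it.

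Markers of cells that usually make elastic fibers were read beside these values. Of 6 smooth muscle markers, 2 passed the filter and both were called higher, where 4.48% of all tested genes were. *ACTA2* had means of 0.143 FPKM in TPC-1 and 2.53 FPKM in *RRM2*-OE-TPC-1, and it passed the filter only through the latter, so its call is not support. *TAGLN* rose from 0.821 to 7.92 FPKM. *MYOCD* had no read in any library, *DES* had 3 reads in TPC-1 but 0 in *RRM2*-OE-TPC-1, and *MYH11* was at 0.103 and 0.0894 FPKM. The summed level of the 6 was 0.963 to 1.39 FPKM in TPC-1 and 9.79 to 11.5 FPKM in *RRM2*-OE-TPC-1. Of 8 fibroblast markers, 2 passed the filter and neither was called, and *DCN*, *COL1A2* and *COL3A1* had no read in any library. Their summed level was 2.98 to 3.39 FPKM in TPC-1 and 2.95 to 3.05 FPKM in *RRM2*-OE-TPC-1. Whether *ACTA2* and *TAGLN* have a part in the values of *MFAP5* was not tested.

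The other marker lists are given by their levels. The summed level of 6 epithelial markers was 42.9 to 47.1 FPKM in TPC-1 and 88.4 to 90.8 FPKM in *RRM2*-OE-TPC-1, mostly from *KRT18*, which rose from 41.2 to 85.2 FPKM and was the 1 gene called of the 3 tested. *KRT8* had means of 2.56 and 3.48 FPKM, *KRT7* of 1.18 and 1.01 FPKM, and *CDH1*, which did not pass the filter, of 0.0786 and 0.0508 FPKM. Neither of the 2 thyroid markers tested was called, *PAX8* with means of 69.3 and 58.5 FPKM and *FOXE1* with means of 4.30 and 3.19 FPKM. The 3 endothelial markers summed to 0.873 to 1.05 FPKM and 0.0667 to 0.115 FPKM, mostly from *PECAM1*, which had means of 0.924 and 0.0588 FPKM and passed the filter only through TPC-1. *VWF* had 3 reads in TPC-1 and 16 in the infected cells, and *CDH5* had 1 and 0. The 3 leukocyte markers had no read in TPC-1 and summed to at most 0.0355 FPKM in *RRM2*-OE-TPC-1. The part of these genes in the values of the 10 elastic fiber genes was not tested.

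The genes most like *MFAP5* across the 6 libraries were found by the Euclidean distance between centred log2(FPKM + 0.1) profiles over 11450 tested protein-coding genes. The distance is in log2 units, and the closest 5 were *CPA4* at 0.359, *IL32* at 0.592, *MARCH4* at 0.794, *CGB8* at 0.843 and *BAAT* at 0.886. *CPA4*, a carboxypeptidase, had means of 0.420 FPKM in TPC-1 and 13.3 FPKM in *RRM2*-OE-TPC-1. *IL32*, a cytokine, had means of 0.267 and 9.70 FPKM. *MARCH4*, a membrane ubiquitin ligase, had means of 0.513 and 10.7 FPKM. Like *MFAP5*, all 5 had low levels in every TPC-1 library and higher levels in every *RRM2*-OE-TPC-1 library. That pattern was fixed by the choice of the closest profiles. All 5 also passed the filter only through the *RRM2*-OE-TPC-1 libraries, so nothing is read from it. *CGB8*, a chorionic gonadotropin beta gene, had 1 read in the 3 TPC-1 libraries and 131 in the *RRM2*-OE-TPC-1 libraries, and since its copies are nearly identical its counts are uncertain. *BAAT*, which conjugates bile acids to amino acids, had means of 0.143 and 4.08 FPKM. With 6 libraries in 2 groups, closeness of profiles mainly reflects a similar difference between the groups.

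Around *MFAP5*, 15 protein-coding genes lay within 500 kb on either side, and 5 of them were tested. Of these, 1 was called, beside 11.5% of all tested genes. It was *CLEC4E*, 96383 bases away, with 0.261 ± 0.121 FPKM in TPC-1 and 1.84 ± 0.402 FPKM in *RRM2*-OE-TPC-1, and since it passed the filter only through the latter, nothing is read from the call. *RIMKLB*, 18712 bases from *MFAP5*, was at 6.60 FPKM in TPC-1 and 5.63 FPKM in *RRM2*-OE-TPC-1, a log2 fold change of -0.23. The other tested neighbours had log2 fold changes of -0.75 (*PHC1*), 0.65 (*M6PR*) and 0.076 (*KLRG1*). These neighbours were named after their values were seen.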

How the data were processed

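Libraries of 3 TPC-1 and 3 *RRM2*-OE-TPC-1 samples were grouped by the sample titles. The deposited values are FPKM, made by the authors from fastp-cleaned reads with HISAT2 2.0.5 as aligner and featureCounts 1.5.0 as counter. The versions, DESeq2 1.20.0 and the build GRCh38.p14 are from the submitters' processing notes. GENCODE 29 held all 58735 identifiers at the same positions; 12 symbols read as dates and were restored. FPKM times gene length gave whole multiples of 1 step per library for 100% of values (tolerance 0.01), from which reads and depth were recovered. No library was left out and no other per-sample column was present.

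limma 3.58.1 (R 4.3.3) was run on log2(FPKM + 0.1) with eBayes and a trend, for genes that reached an FPKM of 0.5 and 10 reads in 3 or more libraries. The procedure was tested on simulated data. Read intervals are exact, conditional on the summed counts. Other steps used Python 3.11.15 (pandas 2.3.3, numpy 2.4.6, scipy 1.17.1) and figures matplotlib 3.10.9.

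Named genes are the 10 genes, the 5 with the smallest distance to *MFAP5*, *RRM2*, and in each role group the called genes or else the gene of highest mean FPKM. Some marker results are not reported here. Genes named for an overlap, a marker list or a place near *MFAP5*, or as uncalled genes beside a called gene, were named after their values were seen. The genes, lists and tests were chosen with earlier results of these data known. Alternatives were no filter, pseudocounts of 1 and 0.01, scaling to library totals and by median of ratios, each library left out, a replicate block, voom, and the adjusted p alone.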

Additional observations from a re-analysis of the deposited data

How the results depend on the processing

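Of 84 counts of called genes under the alternatives, 73 were within 1.5 times the reported count. With no filter 920 genes were called higher. With a pseudocount of 1, 303 genes were called higher and 413 lower, and 1 gene of the wider pathway list was higher. With the adjusted p alone, 4758 genes were higher and 4449 lower, 2 of the elastic fiber genes were higher (*MFAP5* and *FBN2*), and 8 genes of the pathway list were higher and 20 lower. Scaling to library totals and voom each gave 6 lower genes of that list, and library totals moved the median of all tested genes by -0.057. The log2 fold change of *MFAP5* was 2.82 with a pseudocount of 1, 5.41 with 0.01 and 5.38 with voom, so its size depends on these settings. Its direction was the same in all 12 alternatives. Because *MFAP5* was selected on this difference and its groups lie far apart, that was fixed in advance and nothing is read from it. Leaving out each library in turn gave 4.63 to 4.97 for *MFAP5*, 600 to 632 genes called higher and 966 to 1003 lower, 1 elastic fiber gene in each direction, and 2 higher and 3 lower genes of the pathway list. The signs of *MFAP2* and *ELN* differed from the reported ones in 4 and 7 of 12 alternatives. The replicate block gave 1566 called genes, with 1 elastic fiber gene in each direction. Same-numbered libraries did not deviate together (correlations of -0.0105, -0.0060 and -0.0550). These values cannot tell whether the libraries were prepared in pairs, and the main fit did not pair them. *MFAP4*, *ELN*, *EMILIN1* and *FBLN5*, which did not pass the filter, are limited by depth. Read intervals cover counting error only.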
